A study of Rattus norvegicus with 6 samples.

Results

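The genes described are those of the pre-B cell receptor and of the first steps of its signalling: the surrogate light chain genes Vpreb1, Vpreb2 and Igll1, with Vpreb3 grouped beside them, the signalling chains Cd79a and Cd79b, the adaptor Blnk, the kinase Blk and the inhibitory receptor Cd22. They were taken by symbol from the authors' annotated gene table, which held 8 of the 9, and Cd79a had no row under its symbol. It was followed through an unnamed locus that the authors annotate as CD79A antigen, with the alpha chain of the rat B cell antigen receptor complex as its best protein match. The 9 are part of 17172 genes and loci listed in all, of which 13547 passed the expression filter. They were read in c-kit+ cells from the hind-leg bone marrow of 6 ACI rats aged 6 to 8 weeks. The 3 PHZ rats received phenylhydrazine, a compound that destroys red cells, at 100 mg/kg into the peritoneum, and the 3 PBS rats received the same amount of saline. Marrow was taken 36 h after injection, and cells were captured with a biotinylated antibody to c-kit, the stem cell factor receptor of blood progenitors. Each group has 2 rats labelled female and 1 labelled male, and no allele or transgene is stated.

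A developing B cell that has joined a mu heavy chain gene first displays the heavy chain with the surrogate light chain, a stand-in made of a VpreB protein and the lambda-like chain encoded by Igll1. Cd79a and Cd79b carry the signal into the cell, where Src family kinases such as Blk and the kinase Syk act and Blnk links Syk to its targets. Signalling stops surrogate light chain transcription and lets the cell go on to rearrange its light chain genes, so surrogate light chain marks a short early stage, whereas Cd79a, Cd79b, Blnk, Blk and Cd22 are kept in later B cells.

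Total expected counts per library ran from 13196249 to 19492793. Globin transcripts took 9.59% to 22.1% of them. Kit was measured in all libraries, with 8.36, 10.48 and 15.54 FPKM in PHZ rats and 12.86, 14.67 and 10.64 FPKM in PBS rats, and was not called (log2 fold change -0.09, SE 0.27, edgeR adjusted p = 0.841). In 3 libraries, PHZ 3, PBS 1 and PBS 2, Y-linked transcripts went against the labelled sex. These transcripts were present in PHZ 2, PHZ 3 and PBS 1 and absent from PHZ 1, PBS 2 and PBS 3. By transcripts the groups were thus not balanced for sex. PHZ 1 and PBS 1 each differed in this from the rest of their group. Only labelled sex was used as a covariate. Among the receptor genes PHZ 1 stood apart in surrogate light chain. It was also well above the other PHZ libraries in the mature B cell markers Ms4a1, Fcer2 and Cr2. PBS 1 stood apart from the other PBS libraries, high in immunoglobulin loci and plasma cell genes and low in Rag1 and Rag2, as given with the results.

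The start regions of 5 of these genes are shown because Vpreb1 and Vpreb2 appear to share reads in these data and because the 5 genes were lower together in PHZ rats. Transcript sequences were not compared. They are RefSeq windows of the GRCr8 assembly, not of the build rn6 the files use, from 250 bases before to 50 after the annotated start, and 7 of the 9 genes were found in that table (Cd79b and Blk were not). Capitals mark 3 motifs searched on both strands, the octamer ATTTGCAT read by Oct factors, the core CCCNNGGG of EBF sites and the E box CAGGTG read by E2A proteins; the motifs do not overlap in any window shown. The windows are Vpreb1 (chr11:97630924-97631223, plus strand), Vpreb2 (chr11:96514355-96514654, minus strand), Igll1 (chr11:97642937-97643236, plus strand), Cd79a (chr1:89621210-89621509, plus strand) and Blnk (chr1:249770484-249770783, minus strand).
Vpreb1: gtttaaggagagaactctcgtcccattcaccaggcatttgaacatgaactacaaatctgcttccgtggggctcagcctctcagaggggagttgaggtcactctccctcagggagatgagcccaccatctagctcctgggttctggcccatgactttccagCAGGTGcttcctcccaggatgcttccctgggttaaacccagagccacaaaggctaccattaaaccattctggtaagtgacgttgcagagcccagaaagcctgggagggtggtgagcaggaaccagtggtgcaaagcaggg
Vpreb2: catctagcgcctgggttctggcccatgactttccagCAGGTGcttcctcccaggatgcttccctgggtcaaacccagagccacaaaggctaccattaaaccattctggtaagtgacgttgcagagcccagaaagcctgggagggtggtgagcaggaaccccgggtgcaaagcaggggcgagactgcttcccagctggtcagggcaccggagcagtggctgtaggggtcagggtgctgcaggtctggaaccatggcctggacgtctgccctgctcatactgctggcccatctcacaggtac
Igll1: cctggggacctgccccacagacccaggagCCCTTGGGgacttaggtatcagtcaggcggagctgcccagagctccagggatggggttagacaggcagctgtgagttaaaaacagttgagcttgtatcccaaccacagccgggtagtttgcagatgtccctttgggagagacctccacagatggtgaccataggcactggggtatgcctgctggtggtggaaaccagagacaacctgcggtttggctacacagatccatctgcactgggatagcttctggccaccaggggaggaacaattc
Cd79a: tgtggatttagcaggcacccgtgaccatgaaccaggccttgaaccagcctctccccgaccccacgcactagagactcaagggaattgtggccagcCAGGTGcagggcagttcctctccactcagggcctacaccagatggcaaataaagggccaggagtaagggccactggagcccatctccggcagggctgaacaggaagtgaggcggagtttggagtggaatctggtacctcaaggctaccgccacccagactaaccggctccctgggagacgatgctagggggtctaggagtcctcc
Blnk: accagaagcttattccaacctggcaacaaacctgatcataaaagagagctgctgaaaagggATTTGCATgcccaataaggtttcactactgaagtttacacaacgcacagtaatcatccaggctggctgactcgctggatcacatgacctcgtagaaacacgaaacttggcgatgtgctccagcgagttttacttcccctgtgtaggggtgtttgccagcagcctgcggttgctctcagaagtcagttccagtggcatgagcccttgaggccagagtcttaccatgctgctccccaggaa

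In the windows of Vpreb1 and Vpreb2, listed in RefSeq as Vpreb1a and Vpreb1b, the best local alignment held 171 identical bases in 176 columns (97.2%). It runs over bases 125 to 300 of the Vpreb1 window and 1 to 176 of the Vpreb2 window, so the copies carry the same stretch at a different distance from the annotated start. The CAGGTG lies in that stretch, 90 bases before the annotated start in Vpreb1 and 214 before it in Vpreb2. The annotated starts of Igll1 and Vpreb1 are 12013 bases apart on chromosome 11, and those of Vpreb1 and Vpreb2 are 1116770 bases apart. A CAGGTG also lies 155 bases before the start of Cd79a, the EBF core of Igll1 lies 221 bases before its start, and the octamers of Blnk and Vpreb3 lie 189 and 56 bases before theirs. Of the 7 windows, 3 held CAGGTG, 1 the EBF core and 2 the octamer, and the window of Cd22 held none of them. Over all 33469 RefSeq windows of this length the shares were 18.8%, 12.4% and 1.78%. A match is only a run of letters and does not show that a factor binds there.

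Surrogate light chain transcripts were lower in every PHZ library than in every PBS library for Vpreb1, Vpreb2 and Igll1, by 5.40- to 8.17-fold in the fitted estimates, and of these Vpreb2 passed the test. Cd79a, Cd79b, Blnk and Blk were 3.04- to 3.21-fold lower and all 4 passed. Cd22 overlapped between the groups and was not called. Of the 8 genes tested, 5 were therefore called lower in PHZ rats and 0 higher (edgeR's quasi-likelihood test, Benjamini-Hochberg adjusted p under 0.05 over all 13547 genes), against 565 of 13547 genes called lower (4.17%) and 1783 called in either direction (13.2%). DESeq2 called 7 of the 8 lower and 0 higher (11.5% of all genes lower), and limma called 5 lower and 0 higher (2.86% of all genes lower). At an unadjusted edgeR p under 0.05 there were 7 lower and 0 higher (15.3% of all genes lower). The median log2 fold change of the 8 was -1.67, beside -0.04 over all tested genes. Of all 9 genes, 7 lay below PBS in every PHZ library with no overlap in FPKM. In CPM the same 7 of the 8 tested did so, as did 2600 of the 13547 tested genes (19.2%). In these bulk samples, fewer B lineage cells, less RNA per cell and a larger share of RNA from other cells cannot be told apart.

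**Figure D1:**
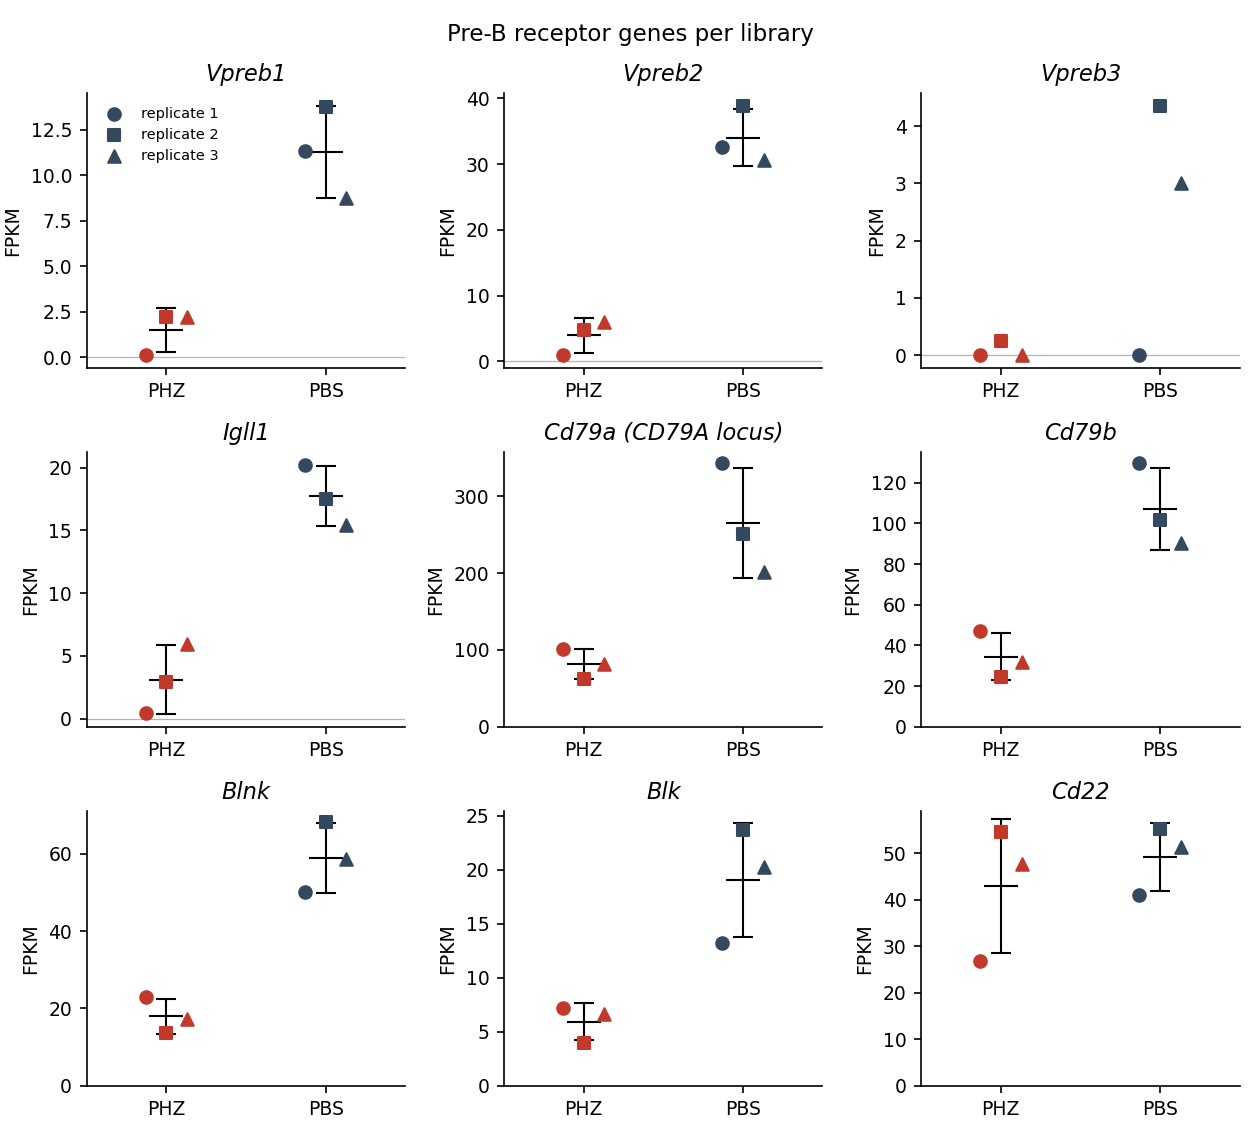
FPKM per library of the 9 genes, PHZ on the left and PBS on the right of each panel; points are rats, with symbols for replicate numbers, and bars are the mean ± SD of 3 rats (not drawn for Vpreb3, which is at 0 in 3 libraries). The groups separate for all but Vpreb3 and Cd22, and PHZ 1 is the lowest library for Vpreb1, Vpreb2 and Igll1 but the highest PHZ library for Cd79a and Cd79b.

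Vpreb2, a VpreB chain of the surrogate light chain, had 0.93, 4.83 and 6.03 FPKM in PHZ rats, against 32.55, 38.86 and 30.57 FPKM in PBS rats. The highest PHZ library was thus well below the lowest PBS library. Its mean was 3.93 ± 2.67 FPKM in PHZ rats and 34.0 ± 4.33 FPKM in PBS rats (SD, n = 3 each), and it fell 8.17-fold (log2 fold change -3.03, SE 0.67, adjusted p = 0.0377). Vpreb1, whose start window shares a near-identical stretch with that of Vpreb2, had 0.12, 2.21 and 2.23 FPKM in PHZ rats, against 11.34, 13.76 and 8.72 FPKM in PBS rats. The groups did not overlap, but its log2 fold change of -2.75 (SE 0.87) did not pass the test (adjusted p = 0.0818).

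The division of reads between Vpreb1 and Vpreb2 is uncertain. Their expected counts were fractional in each library, while their sum was a whole number in all of them within a tolerance of 0.011 (12, 80 and 67 in PHZ rats, against 421, 528 and 381 in PBS rats). No other listed gene complemented Vpreb1 in this way, the pattern that results when reads that fit both copies are divided between them. Vpreb2 took 62.9% to 86.1% of the sum, the highest share being that of PHZ 1 with its 12 reads. Fitted as a single feature, a choice made after seeing the data, the sum was 7.69-fold lower in PHZ rats (log2 fold change -2.94, SE 0.73, adjusted p = 0.0489).

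Igll1, whose product is the lambda-like chain that joins VpreB to the heavy chain, had 0.45, 2.94 and 5.92 FPKM in PHZ rats, against 20.21, 17.52 and 15.44 FPKM in PBS rats. All PHZ libraries were below all PBS libraries, and PHZ 1 was near 0. The log2 fold change of -2.43 (SE 0.80) was not called (adjusted p = 0.0896). Leaving out PHZ 1 brought the fitted log2 fold changes to -2.18 for Vpreb1, -2.52 for Vpreb2 and -1.89 for Igll1, and all 3 were then called (adjusted p = 0.0241, 0.0228 and 0.0289). In that fit 3.83% of all tested genes were called lower.

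Vpreb3, which encodes a precursor B cell protein of the endoplasmic reticulum known in mouse to bind heavy chains, was near the limit of detection. Its expected counts were 0, 2.11 and 0 in PHZ rats, against 0, 32.65 and 21.97 in PBS rats. It was listed in PHZ 2, PBS 2 and PBS 3 only, so the groups overlap at 0, and it did not pass the expression filter with all libraries. Without PBS 1 it passed and was called lower (adjusted p = 0.0397), whereas without any 1 PHZ library it passed and was not called (adjusted p = 0.222 to 0.249). A count of 0 allows up to 3 counts, which is 0.154 CPM in PHZ 1, 0.227 CPM in PHZ 3 and 0.191 CPM in PBS 1, covering counting error only. A second, unnamed locus whose best protein match is an isoform of the same protein was found after seeing the files, and had 1.35, 4.70 and 6.73 FPKM in PHZ rats, against 6.95, 25.40 and 20.76 FPKM in PBS rats. Its highest PHZ value was just below its lowest PBS value, and it was not called (BGI_novel_G002241, log2 fold change -1.98, SE 0.73, adjusted p = 0.116). PBS 1 was the lowest PBS library for both rows.

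Summed over the surrogate light chain genes and Vpreb3, the level was 1.5, 10.2 and 14.2 FPKM in PHZ rats, against 64.1, 74.5 and 57.7 FPKM in PBS rats. Vpreb2 made up 42.5% to 62.0% of this sum in PHZ rats and 50.8% to 53.0% in PBS rats. Igll1 made up 28.7% to 41.7% in PHZ rats and 23.5% to 31.5% in PBS rats, and Vpreb1 8.0% to 21.6% in PHZ rats and 15.1% to 18.5% in PBS rats. The order by FPKM was Vpreb2, Igll1 and Vpreb1 in all libraries, with Vpreb2 and Igll1 nearly equal in PHZ 3. In expected counts Vpreb1 and Igll1 were nearly equal in PBS 2 (165.78 and 165). The shares of Vpreb1 and Vpreb2 depend on the uncertain division of reads between them. Their extremes of 8.0% and 62.0% are both of PHZ 1, with 1.67 and 10.33 expected counts.

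Cd79a and Cd79b, the chains that carry the activation motifs of both the pre-B and the mature receptor, were the most abundant members in PBS rats. The Cd79a locus had 100.86, 61.61 and 82.14 FPKM in PHZ rats, against 342.83, 250.35 and 201.71 FPKM in PBS rats. Cd79b had 47.02, 24.41 and 31.94 FPKM in PHZ rats, against 129.57, 101.62 and 90.25 FPKM in PBS rats. In both genes PHZ 1 was the highest PHZ library and PBS 1 the highest PBS library, and the groups did not overlap. The Cd79a locus fell 3.15-fold (log2 fold change -1.65, SE 0.21, adjusted p = 0.0168) and Cd79b fell 3.04-fold (log2 fold change -1.60, SE 0.21, adjusted p = 0.0169). The log2 ratio of their expected counts differed between PHZ and PBS libraries by -0.02 (exact permutation test, two-sided, p = 0.8, n = 3 each; the smallest p this design allows is 0.1).

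Blnk, the adaptor that Syk phosphorylates, had 22.90, 13.71 and 17.17 FPKM in PHZ rats, against 50.18, 68.25 and 58.61 FPKM in PBS rats. It fell 3.21-fold (log2 fold change -1.68, SE 0.18, adjusted p = 0.0154), with the smallest p among these genes. Blk, the Src family kinase of B lineage cells, had 7.21, 3.96 and 6.66 FPKM in PHZ rats, against 13.25, 23.67 and 20.28 FPKM in PBS rats. It fell 3.15-fold (log2 fold change -1.65, SE 0.28, adjusted p = 0.0223). PBS 1, the highest PBS library for the CD79 chains, was the lowest for Blnk and Blk. PHZ 1 was the highest PHZ library in FPKM for both.

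Cd22, a sialic acid-binding receptor that recruits the phosphatase Ptpn6 to dampen the signal, had 26.72, 54.43 and 47.71 FPKM in PHZ rats, against 40.94, 55.24 and 51.26 FPKM in PBS rats. The groups overlapped, with PHZ 1 lowest of all. The log2 fold change was -0.15 (SE 0.32, adjusted p = 0.765) and took the other sign without PHZ 1, at 0.14 (SE 0.20, adjusted p = 0.645).

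**Figure D2:**
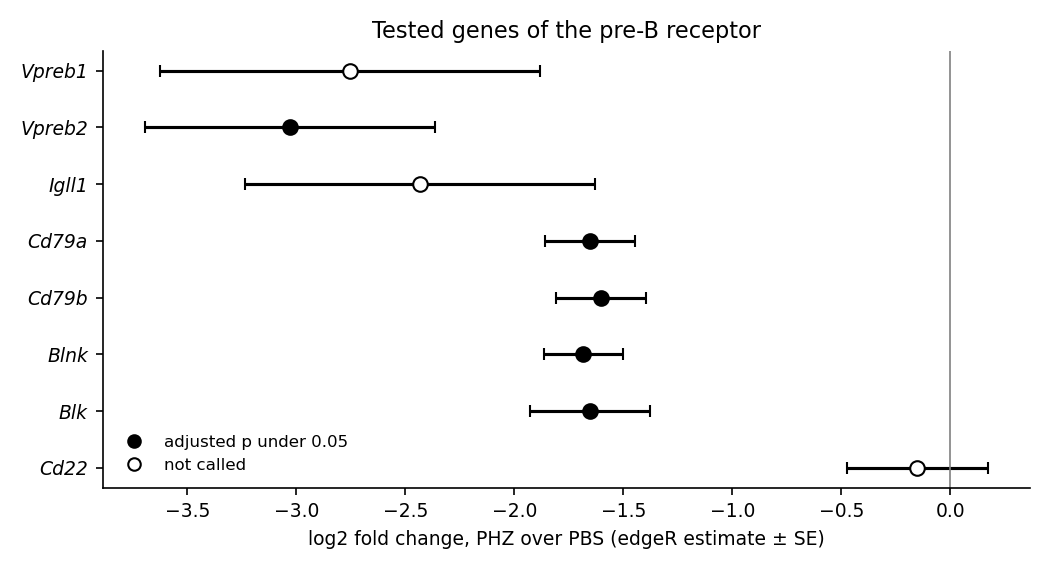
Fitted log2 fold change, PHZ over PBS, of the 8 tested genes (horizontal axis; points with bars of 1 SE, filled where the edgeR adjusted p was under 0.05). Cd79a, Cd79b, Blnk and Blk lie between -1.60 and -1.68 with short bars, the surrogate light chain genes lie farther left with long bars, and Cd22 lies at -0.15.

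Ratios within a library do not depend on scaling between libraries. Surrogate light chain counts (Vpreb1, Vpreb2 and Igll1) were 0.693%, 8.45% and 8.92% of CD79 counts (Cd79a and Cd79b) in PHZ rats, against 9.80%, 14.4% and 13.2% in PBS rats. All PHZ libraries were below all PBS libraries, PHZ 2 and PHZ 3 by little and PHZ 1 by far. The log2 ratio averaged -4.74 ± 2.11 in PHZ rats and -3.02 ± 0.29 in PBS rats (SD, n = 3 each), a difference of -1.72 (exact permutation test, two-sided, p = 0.1, the smallest possible). The difference rests largely on PHZ 1, since without that library it was -0.50. Taken with Igll1 alone, whose counts were whole in every library, the difference was -1.47 and the groups overlapped (exact permutation test, p = 0.3).

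The log2 ratios of Blnk and Blk to the CD79 chains differed between the group means by -0.05 and 0.00 (exact permutation test, p = 1 for each). Their ratios varied more among PBS libraries, where Blnk was 21.95%, 39.6% and 40.7% of CD79 counts, than among PHZ libraries, where it was 31.2%, 32.7% and 31.0%. Cd22 counts were 98.0%, 336% and 227% of CD79 counts in PHZ rats, against 49.1%, 86.6% and 96.2% in PBS rats, a log2 difference of 1.40 (exact permutation test, p = 0.1). PHZ 1 and PBS 3 were nearly equal in this ratio, so the groups separate by little.

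The mu heavy chain, the partner of the surrogate light chain, is represented by 3 unnamed loci annotated as Igh-6, found after seeing the files. Their summed counts were 3455%, 726% and 723% of CD79 counts in PHZ rats, against 793%, 644% and 670% in PBS rats. PHZ 1, the library with the least surrogate light chain, had the most heavy chain per CD79, and the other PHZ libraries were close to the PBS libraries (log2 difference 0.80, exact permutation test, p = 0.4). None of the 3 loci was called with all libraries (log2 fold changes -0.47, -0.16 and -0.21, edgeR; 0 also at an unadjusted p under 0.05 and with DESeq2 and limma). Without PHZ 1 all 3 were called lower, at -1.93, -1.66 and -1.42 (adjusted p = 0.0257, 0.0351 and 0.0228). In that fit 3.83% of all tested genes were called lower.

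**Figure D3:**
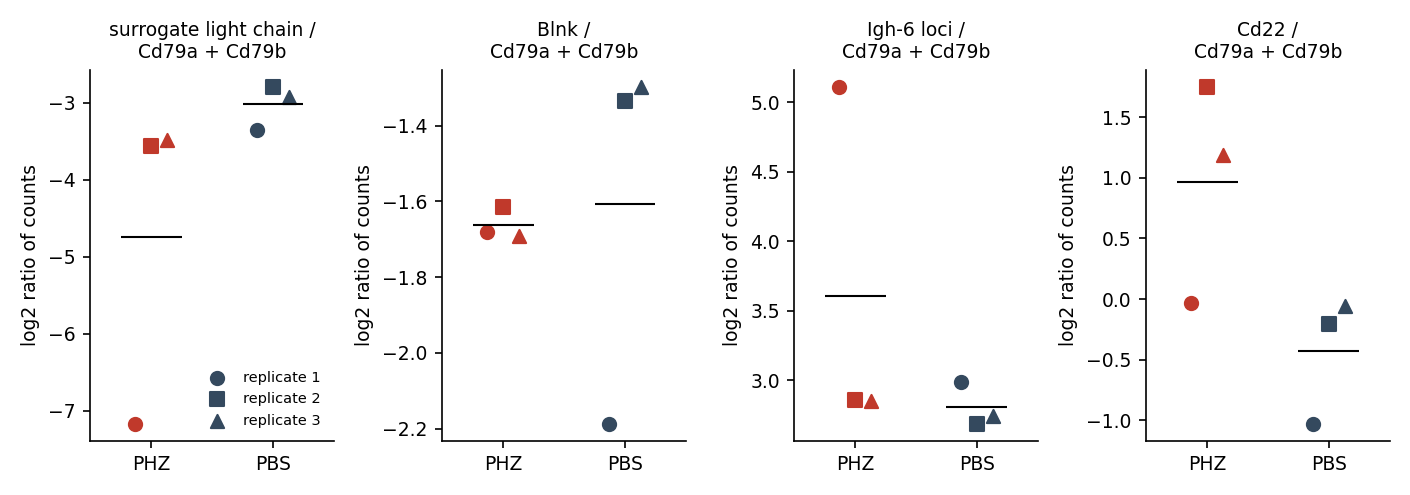
Log2 ratio of expected counts to those of Cd79a and Cd79b in each library (vertical axes differ between panels), PHZ on the left and PBS on the right; points are rats, with symbols for replicate numbers, and lines are group means. PHZ 1 is lowest for surrogate light chain, at -7.17, and highest for the Igh-6 loci, at 5.11.

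Over the 6 fits with 1 library left out, the log2 fold change stayed between -1.78 and -1.45 for the Cd79a locus, between -1.80 and -1.46 for Cd79b, between -1.81 and -1.58 for Blnk and between -1.87 and -1.48 for Blk. The number of genes of the set called lower was 7 without PHZ 1, 3 without PHZ 2, 3 without PHZ 3 and 5 without PBS 1 (Vpreb3 in place of Vpreb2, whose adjusted p was 0.0596). Of all tested genes, 3.83%, 0.359%, 1.42% and 5.22% were called lower in these fits, in which all 9 genes of the set were tested. Without PBS 2 and without PBS 3, 8 of the set were tested and edgeR called 0 of all genes. In these last 2 fits 7 of the set were lower at an unadjusted p under 0.05. Of all tested genes, 3325 of 13815 and 3291 of 13864 had such a p, counted in either direction. Without the 3 libraries that go against their sex label, 2 PHZ libraries and 1 PBS library remain, none of the genes was called (adjusted p of 0.455 or more), and the estimates were -1.37 for the Cd79a locus, -1.41 for Cd79b, -1.74 for Blnk, -1.93 for Blk, -2.77 for Vpreb1, -3.33 for Vpreb2, -3.09 for Igll1 and -0.35 for Cd22.

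**Figure D4:**
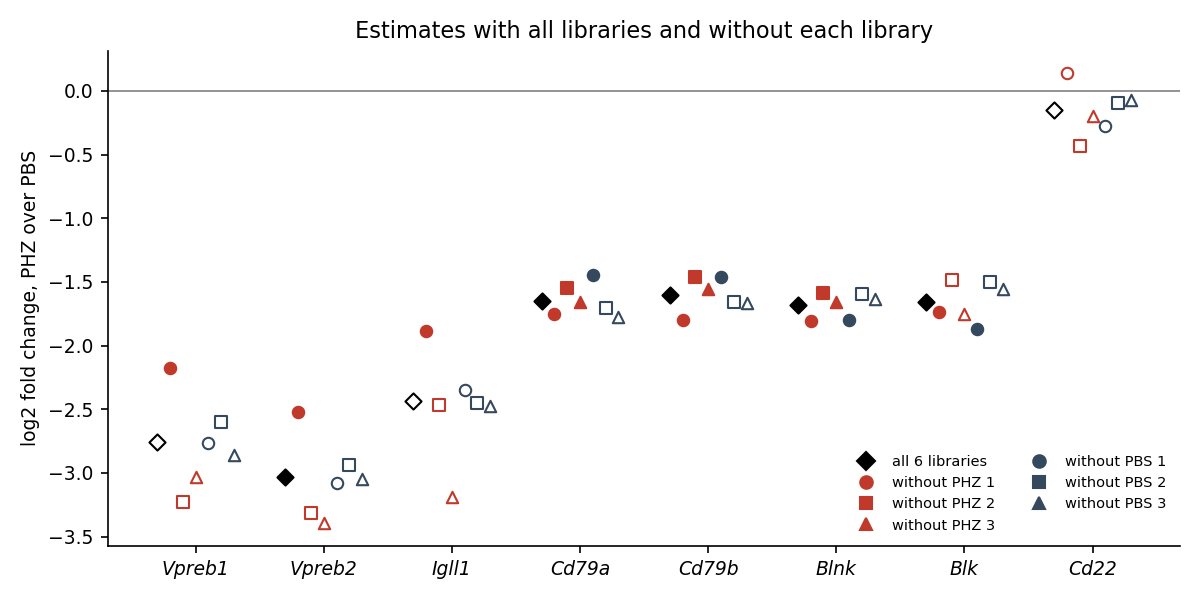
Log2 fold change, PHZ over PBS (vertical axis), of each tested gene with all 6 libraries (diamonds) and without 1 library (other symbols; colour and shape give the library left out), filled where the adjusted p was under 0.05. Cd79a, Cd79b, Blnk and Blk stay between -1.87 and -1.45 throughout, and Igll1 ranges from -3.19 to -1.89.

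Other genes of the receptor pathway had estimates below 0 in 28 of 29 cases. Over all tested genes the median log2 fold change was -0.04 and 4.17% were called lower. Of a list of 32 coreceptors, kinases, adaptors and phosphatases, 3 had no row, the other 29 were tested, 10 were called lower and 0 higher, and the median log2 fold change was -0.76. At an unadjusted p under 0.05 there were 21 lower and 0 higher (15.3% of all genes lower). DESeq2 called 20 lower and 0 higher (11.5% of all genes lower), and limma called 7 lower and 0 higher (2.86% of all genes lower). Prkcb, the protein kinase C isoform of the NF-kappaB branch, fell by 1.03 (SE 0.19, adjusted p = 0.0251) and Plcg2, the phospholipase that Blnk brings to the receptor, fell by 0.88 (SE 0.16, adjusted p = 0.0251), both on the log2 scale. The 10 are lost or gained with the libraries used. The number called lower was 10 without PHZ 1, 3 without PHZ 2, 2 without PHZ 3 and 11 without PBS 1. Of all tested genes, 3.83%, 0.359%, 1.42% and 5.22% were called lower in these fits. Without PBS 2 or without PBS 3 the number was 0, as it was over all genes.

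The kinases around the receptor were singled out after their values were seen. Syk, which binds the phosphorylated CD79 chains, had 40.26, 28.91 and 45.43 FPKM in PHZ rats, against 63.34, 77.79 and 69.35 FPKM in PBS rats, and was called lower (log2 fold change -0.84, SE 0.18, adjusted p = 0.0324). Btk, the Tec family kinase that acts on Plcg2, had a log2 fold change of -0.47 (SE 0.14, adjusted p = 0.0658), and the Src family kinase Lyn one of -0.46 (SE 0.18, adjusted p = 0.135). Neither was called, unlike Blk; whether the kinases differ from each other in their response was not tested. Syk, Btk, Lyn and Ptpn6 are also made by myeloid cells, and in level Ptpn6 was above all of them, with 81.4 to 122 FPKM in PHZ rats and 153 to 186 FPKM in PBS rats.

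Transcription factors of the B lineage were called lower in 9 of 14 cases and higher in 1, Bcl11a, with a median log2 fold change of -1.62, near that of the receptor genes. Of all tested genes, 4.17% were called lower. Pax5, which fixes B lineage identity, had 12.93, 5.29 and 10.49 FPKM in PHZ rats, against 31.94, 37.24 and 33.41 FPKM in PBS rats (log2 fold change -1.84, SE 0.29, adjusted p = 0.0215). Ebf1, known to activate surrogate light chain and Cd79a genes, fell by 2.06 (SE 0.36, adjusted p = 0.0238) and Irf4, needed with Irf8 in mouse to leave the pre-B stage, fell by 1.77 (SE 0.23, adjusted p = 0.0169), both on the log2 scale. Bcl11a, a factor of lymphoid and other progenitors, had 17.20, 13.42 and 18.20 FPKM in PHZ rats, against 10.58, 12.21 and 9.71 FPKM in PBS rats, and was higher (log2 fold change 0.64, SE 0.13, adjusted p = 0.0316). Without PBS 1, 7 were called lower and 0 higher (5.22% of all tested genes lower).

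Among 8 genes of the pro-B stage and of recombination, 1 was called lower and 0 higher, with a median log2 fold change of -0.96 (2 lower and 0 higher at an unadjusted p under 0.05, 3 lower and 0 higher with DESeq2). The one called was Dntt, the terminal transferase that adds bases at joints of antigen receptor genes, with 0.60, 1.13 and 1.60 FPKM in PHZ rats, against 4.49, 6.91 and 4.85 FPKM in PBS rats (log2 fold change -2.21, SE 0.44, adjusted p = 0.0281). PHZ 1 was its lowest library, as for Vpreb1, Vpreb2 and Igll1. Rag1 and Rag2 of this list overlapped between the groups and were not called (edgeR adjusted p = 0.188 and 0.271). Rag1 had 0.20, 0.84 and 2.30 FPKM in PHZ rats, against 1.40, 7.06 and 6.00 FPKM in PBS rats. Rag2 had 0.44, 1.30 and 2.62 FPKM in PHZ rats, against 1.29, 4.53 and 3.56 FPKM in PBS rats. Of 13 mature B cell markers, 9 were tested and 2 were called lower, Fcrla and Cd37 (log2 fold changes -1.70, SE 0.30, adjusted p = 0.0236, and -0.92, SE 0.20, adjusted p = 0.0334), and 0 higher, with a median of -1.16. At an unadjusted p under 0.05 there were 5 lower and 0 higher, as with DESeq2. Beside both lists, edgeR called 4.17% of all genes lower, with 15.3% at an unadjusted p under 0.05 and 11.5% with DESeq2. The summed level of the mature markers was 274.5, 173 and 226 FPKM in PHZ rats, against 460.4, 508 and 463 FPKM in PBS rats. Cd37 was the largest part of that sum in every library. Cd37, Fcrla and Cd40 did not overlap between the groups. Ms4a1, Fcer2, Cr2, Fcmr, Cxcr5 and Cd180 did, and PHZ 1 was the highest PHZ library for each of these. Cr2 had 10.26, 0.88 and 1.10 FPKM in PHZ rats, against 10.37, 4.20 and 6.30 FPKM in PBS rats.

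Markers of other cell types moved as well. Over all 13547 tested genes edgeR called 565 lower (4.17%) and 1218 higher. Of 12 T cell markers 8 were called lower and 0 higher (median log2 fold change -2.01, Cd8a, Cd5 and Cd28 having the smallest p), and their summed level was 65.1 to 86.6 FPKM in PHZ rats and 128 to 210.5 FPKM in PBS rats, with none of them at 0. Most of that sum in PHZ rats was Cd4, which was not called, and the other 11 markers summed to 20.3, 19.9 and 25.8 FPKM in PHZ rats, against 45.0, 70.5 and 75.3 FPKM in PBS rats. Expected counts in PHZ rats were 5, 1 and 2 for Cd28, 26.69, 7.62 and 16.82 for Cd5, and 109, 59 and 57 for Cd8a. Such low counts limit what can be said of the folds of Cd28 and Cd5. Of 4 NK cell markers tested, 1 was called lower (Klrd1), and Klrb1 was at 0 in all PHZ libraries and in 2 PBS libraries. Of 5 plasmacytoid dendritic cell markers tested, 1 was called lower (Irf7). Of 7 erythroid markers 4 were called higher and 0 lower (Tfrc, Klf1, Gata1 and Ahsp; median 1.23), with a summed level of 5152 to 8489 FPKM in PHZ rats and 2966 to 4097 FPKM in PBS rats. For 8 monocyte and macrophage markers and 7 neutrophil markers edgeR called 0, with medians of -0.23 and -0.90 and none of those tested at 0 in a whole group. At an unadjusted p under 0.05 there were 1 and 3 lower (15.3% of all genes lower). DESeq2 also called 1 and 3 lower (11.5% of all genes lower), and limma called 0. Without PBS 1, edgeR called 0 and 3 lower (5.22% of all genes lower). The part of these cell types in the values of the receptor genes was not tested.

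**Figure D5:**
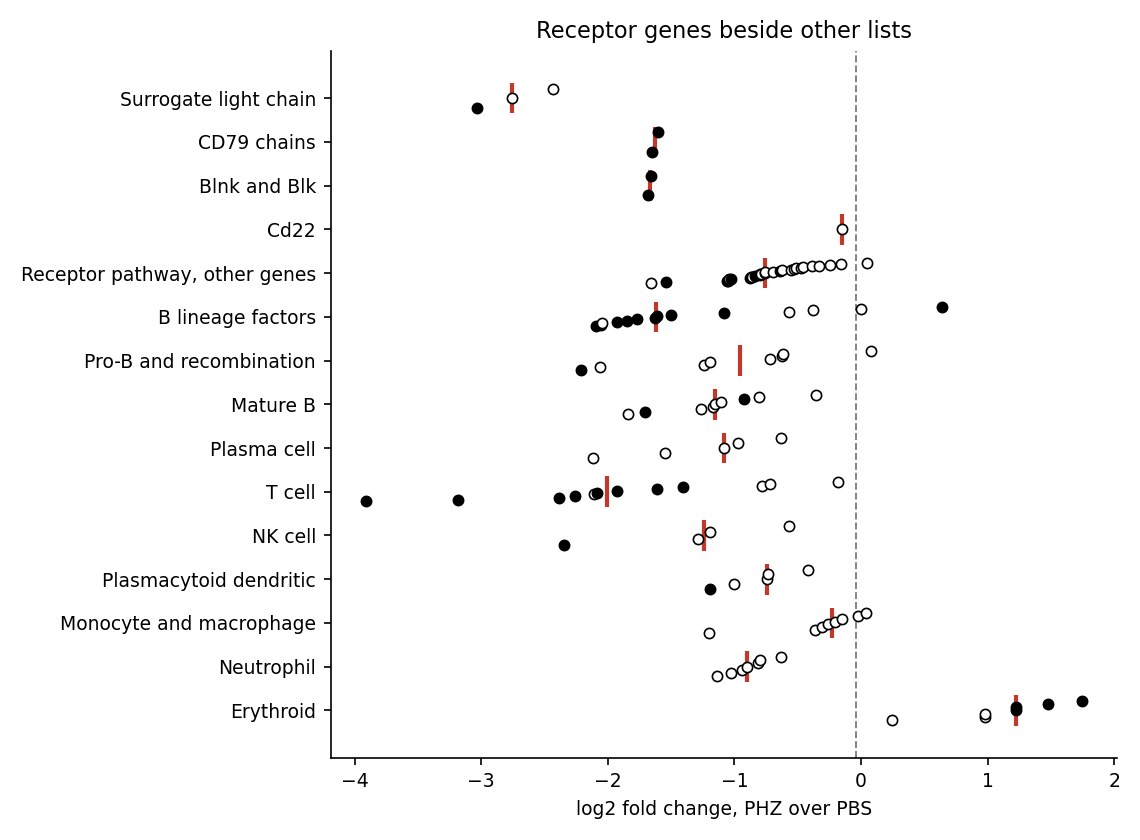
Log2 fold change, PHZ over PBS (horizontal axis), of the tested genes of each list (rows, offset vertically for visibility), filled where the adjusted p was under 0.05; red bars are list medians and the dashed line is the median of all tested genes. Median values are -1.62 for B lineage factors, -0.76 for other receptor pathway genes, -2.01 for T cell markers and 1.23 for erythroid markers.

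By the profile over the 6 libraries, the 5 genes most like the mean of the 8 tested receptor genes were Dpp4, a cell surface peptidase, Il1r2, a decoy receptor of interleukin 1, Dntt, Procr, the protein C receptor, and Fermt2, an adaptor of integrins. Their root mean square difference from that mean was 0.160, 0.194, 0.196, 0.208 and 0.249 on the log2 CPM scale, among 8698 genes compared, and is a description with no test. The receptor genes themselves lay 0.50 (Blnk) to 0.91 (Vpreb1, Cd22) from their own mean. Dpp4 had 5.79, 10.9 and 12.9 CPM in PHZ rats, against 29.2, 41.0 and 43.0 CPM in PBS rats.

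The authors' deposited table marks Vpreb1, Vpreb2, Vpreb3, Igll1, the Cd79a locus, Cd79b, Blnk and Blk as down in PHZ rats and gives Cd22 no mark. Its log2 ratios ran from -1.64 for Cd79b to -4.77 for Vpreb3, which in the authors' deposited table rests on the few counts given above, and the ratio for Cd22 was -0.19.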

How the data were processed

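Poly(A) RNA of c-kit+ marrow cells was sequenced from 6 rats, 3 PHZ and 3 PBS, 1 library per rat. The build was rn6 and the tools were RSEM, HISAT and GATK, per the submitters' processing notes (their roles, versions and settings: not given in the sources used here). For every library the authors deposited an expected count and an FPKM value per gene, per the file headers, and genes not listed in a library were set to 0. In the authors' deposited comparison stand group mean FPKM, the log2 ratio (PHZ over PBS) and a probability score; the means equal those of the library files within 0.011 FPKM in 100% of genes.

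Expected counts were rounded and tested with edgeR 4.0.16 under R 4.3.3 (genes filtered with filterByExpr, TMM scaling, robust quasi-likelihood fit, treatment as the only term, 4 residual degrees of freedom), with Benjamini-Hochberg adjustment over 13547 genes; an adjusted p under 0.05 was called. The biological coefficient of variation was 35.2%. DESeq2 1.42.0 and limma 3.58.1 on log2(FPKM + 0.1) were alternatives. FPKM and CPM are shares of a library. Ratios use expected counts. Python 3.11.15 and scipy 1.17.1 were used for exact permutation tests, which cannot go below p = 0.1.

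The genes and lists were chosen with earlier results of these data known. The text names the 9 genes and Kit, at most 3 called members with the smallest p from each list (all of a list of 5 or fewer), and 5 genes most like the set whose mean log2 CPM is 2 or more; other genes named were chosen after their values were seen. One gene that this choice includes is not reported here. The unnamed loci other than that of Cd79a come from the authors' annotation terms for pre-B lymphocyte gene, immunoglobulin lambda-like polypeptide 1 and immunoglobulin heavy chain. Same-numbered libraries were not stated to be paired.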

Additional observations from a re-analysis of the deposited data

How the results depend on the processing

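The number of receptor genes called lower was 5 under DESeq2 size factors, upper-quartile scaling, no low-count filter, a stricter filter, globin genes left out and limma on FPKM, 4 with labelled sex as a covariate, 7 with DESeq2, 4 without the Cd79a locus and 5 with Vpreb1 and Vpreb2 summed (the last 2 chosen after seeing the data). The count of all genes called, 1783, was 928 with labelled sex as a covariate and 3469 with DESeq2. The share of all tested genes called lower was 1.79% with labelled sex as a covariate and 11.5% with DESeq2. It ran from 2.58% to 5.44% in the scaling, filter, globin and limma fits. Upper-quartile scaling and DESeq2 lowered the share of calls that were higher, which was 68.3%, to 58.7% and 55.1%. Leaving out 1 library gave 0 to 7 receptor genes and 0 to 1744 genes in all. Without the 3 libraries against their sex label both counts were 0 (1480 genes at an unadjusted edgeR p under 0.05). With a replicate block both counts were 0, with edgeR adjusted p of 0.0555 to 0.0641 for the 5 genes. At an unadjusted p under 0.05 there were 4641 of 13547 genes in either direction, and 7 receptor genes, all lower. Deviations of same-numbered libraries correlated at 0.213, 0.057 and 0.0045. PHZ 1 correlated best with PBS 1, whereas PHZ 2 and PHZ 3 correlated better with another number. With 3 libraries per group these values cannot decide whether same-numbered rats were paired. The difference in log2 ratio of surrogate light chain to CD79 was -1.72 with a replicate block too (sign-flip p = 0.25, exact), ranged from -2.35 to -0.50 with 1 library left out and was -2.45 without the libraries against their sex label. The log2 fold change of Cd22 was 0.14 without PHZ replicate 1 (range -0.43 to 0.14 with 1 library left out), the only reversed direction among the tested receptor genes under the alternatives run. The low counts of Vpreb1, Vpreb3 and Igll1 in PHZ libraries limit what can be said of their folds.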

Other observations

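Unnamed loci that share annotation terms with the surrogate light chain genes were looked at after the files were seen; some have an immunoglobulin lambda chain as best protein match and others a predicted protein with no name. BGI_novel_G000934, annotated as immunoglobulin lambda-like polypeptide 1 with an Ig lambda variable region as best match, had 197, 138 and 225 FPKM in PHZ rats, against 2477, 251 and 239 FPKM in PBS rats. BGI_novel_G000925, which carries both the pre-B lymphocyte and the lambda-like term and whose best match is such a predicted protein, had 92.1, 15.0 and 127 FPKM in PHZ rats, against 2804, 29.0 and 56.8 FPKM in PBS rats. PBS 1 was far above all other libraries for both, and neither was called (log2 fold changes -2.33 and -3.58, edgeR adjusted p = 0.146 and 0.216). Sums over these terms follow that library: over the 16 loci with the pre-B lymphocyte term it was 4735 FPKM in PBS 1 and 232 to 255 FPKM in the other PBS libraries. The plasma cell markers had the same high library, with Mzb1 at 47.5, 21.7 and 19.1 FPKM in PHZ rats, against 198, 39.4 and 31.2 FPKM in PBS rats. Tnfrsf17 had 3.93, 2.46 and 2.48 FPKM in PHZ rats, against 33.3, 3.84 and 3.58 FPKM in PBS rats. Of the 5 tested (Xbp1, Prdm1 and Sdc1 being the others) edgeR called 0, also 0 at an unadjusted p under 0.05. DESeq2 called 1 lower (11.5% of all genes lower) and limma 0.

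Of 10 heavy chain loci edgeR called 0 with all libraries, 0 at an unadjusted p under 0.05 and 0 with DESeq2 and limma. The calls depended on single libraries. Without PHZ 1 the 3 Igh-6 loci were called lower, as were 3.83% of all tested genes. Without PBS 1 edgeR called 1024 of 13780 genes higher. In that fit other loci, BGI_novel_G003218, BGI_novel_G003221 and BGI_novel_G003222, were called higher (log2 fold changes 2.21, 1.46 and 0.92, adjusted p = 0.0302, 0.0346 and 0.0453). The first of these is annotated with the Ig gamma-2B constant region and had 493, 188 and 279 FPKM in PHZ rats, against 931, 69.4 and 68.2 FPKM in PBS rats.

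One locus with the immunoglobulin lambda-like term, BGI_novel_G001718, whose best match is a T cell receptor gamma chain, was called higher. It had 13.7, 8.48 and 7.50 FPKM in PHZ rats, against 1.49, 3.83 and 2.39 FPKM in PBS rats (log2 fold change 1.98, SE 0.40, adjusted p = 0.0288).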
